A study of Mus musculus with 156 samples.

Results

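The genes described are those of the proteasome, chosen by symbol: every gene whose name begins with Psma, Psmb, Psmc, Psmd, Psme, Psmf or Psmg and a digit, with pseudogenes left out. The rule found 50 of the 40914 genes in the table. Of these, 19 encode subunits of the catalytic core, 23 encode regulatory subunits, activators and an inhibitor, and 7 encode assembly chaperones. Psmc3ip also met the rule, although it encodes a cofactor of meiotic recombination and no proteasome subunit, and it was counted apart. In all, 47 members passed the filter on low counts in both time courses, and Psmb8, Psmb11 and Psme2b did not.

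The proteasome degrades proteins tagged with ubiquitin. Its core is a barrel of stacked rings, in which alpha subunits gate the entrance and beta subunits carry the catalytic sites, and its regulatory particle consists of a base, whose ATPases unfold the substrate, and a lid, which removes ubiquitin. In mammalian cells the transcription factor NRF1 (Nfe2l1) raises proteasome genes together through antioxidant response elements in their promoters when proteasome activity is short. Interferon induces other beta subunits, which replace the constitutive catalytic ones in the immunoproteasome, and embryonic stem cells are known for high proteasome activity.

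RNA was sequenced from 156 libraries of mouse embryonic stem cells in which Firre, a nuclear long noncoding RNA transcribed from the X chromosome, was removed or induced. The 4 lines were a WT control, a line of WT background with a doxycycline-inducible Firre transgene, a Firre KO control, and a line with both the Firre KO and the inducible transgene. In the long course each line was sampled at 0, 720, 1440, 2880 and 5760 min with 3 replicates, and in the short course every 30 min from 0 to 330 min with 2 replicates. All libraries except those of 0 min had received doxycycline, in the control lines as well, so the drug, older medium and longer culture cannot be told apart there. Each genotype is represented by 1 line, so line and genotype cannot be told apart either. Whether replicates were separate cultures is not stated in the labels, so p-values measure the spread between these samples, which may be technical.

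Total counts ran from 18961799 to 47948630 per library. Firre lay at 21.3 to 31.3 TPM (a level per transcript length, scaled to the library) in the long-course WT control and at 0.235 to 1.07 TPM in the KO control. With the transgene it lay at 45.8 to 121 TPM in the WT background and at 0.588 to 50.8 TPM in the KO background, and during the short course it reached 1240 TPM and 471 TPM. The 8 markers of pluripotent stem cells summed to between 7063 and 10623 TPM per library, and 7 fibroblast markers to between 0.987 and 4.98 TPM. One library stood apart: replicate 3 of the WT control at 1440 min had 2660 TPM of 5 structural RNAs (Rn7s1, Rn7s2, Rn7sk, Rmrp and Rpph1), against 16.1 to 76.0 TPM in the other long-course libraries.

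Promoters of 5 members are shown. Psmb6, Psmd12, Psme3 and Psme4 are among the members that differ between lines below, though not those with the largest differences. Psmb5, the main catalytic subunit, is the usual reference. Psmb3, Psmc5 and Psmd11 also differ below and are not shown. Each run holds 250 bases before the transcript start and 20 bases of the transcript, 5′ to 3′ on the gene's own strand, from RefSeq on GRCm38.p6. Capitals mark matches, on either strand, to the core of the antioxidant response element (TGACNNNGC), to CCAAT or to the core of the ETS family's site (CCGGAAG). Psmb5 (chr14:54617976-54618245, minus strand) and Psmb6 (chr11:70525107-70525376, plus strand), which encode beta subunits with catalytic sites, each held 1 antioxidant response element core.
Psmb5: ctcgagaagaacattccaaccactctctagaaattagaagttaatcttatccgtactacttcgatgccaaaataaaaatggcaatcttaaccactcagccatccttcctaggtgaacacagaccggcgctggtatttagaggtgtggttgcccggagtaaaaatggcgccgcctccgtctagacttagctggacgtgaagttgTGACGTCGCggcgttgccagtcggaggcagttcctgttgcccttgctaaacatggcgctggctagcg
Psmb6: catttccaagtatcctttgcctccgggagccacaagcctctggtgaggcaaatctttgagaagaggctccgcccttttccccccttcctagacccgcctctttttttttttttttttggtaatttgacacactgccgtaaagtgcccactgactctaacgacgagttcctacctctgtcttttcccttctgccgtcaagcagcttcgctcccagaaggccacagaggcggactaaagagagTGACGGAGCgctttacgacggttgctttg
Psmd12 (chr11:107479278-107479547, plus strand), a lid subunit, and Psme4 (chr11:30771525-30771794, plus strand), which encodes the activator PA200, each held 1 such core and 1 ETS core. Psme3 (chr11:101315963-101316232, plus strand), which encodes the nuclear activator PA28 gamma, held 2 ETS cores and 1 CCAAT box.
Psmd12: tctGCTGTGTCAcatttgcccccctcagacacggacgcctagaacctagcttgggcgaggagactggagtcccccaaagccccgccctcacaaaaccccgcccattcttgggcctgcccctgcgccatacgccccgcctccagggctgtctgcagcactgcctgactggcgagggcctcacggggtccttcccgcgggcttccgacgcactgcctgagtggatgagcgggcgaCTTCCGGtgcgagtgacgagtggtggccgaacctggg
Psme4: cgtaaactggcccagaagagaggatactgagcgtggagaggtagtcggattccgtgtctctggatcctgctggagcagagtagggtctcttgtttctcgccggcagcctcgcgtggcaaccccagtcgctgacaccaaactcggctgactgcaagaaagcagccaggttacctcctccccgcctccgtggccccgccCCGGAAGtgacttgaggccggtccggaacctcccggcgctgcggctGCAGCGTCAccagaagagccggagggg
Psme3: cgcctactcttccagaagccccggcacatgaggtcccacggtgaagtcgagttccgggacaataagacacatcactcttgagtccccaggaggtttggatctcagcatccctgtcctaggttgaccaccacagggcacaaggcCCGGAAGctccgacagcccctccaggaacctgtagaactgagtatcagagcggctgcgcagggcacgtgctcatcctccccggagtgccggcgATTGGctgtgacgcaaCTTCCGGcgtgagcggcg
Over windows of 300 bases, 45 promoters of 42 members were found in the RefSeq table. The ETS core was present in 35.6% of them and in 8.86% of all 32851 promoters. The sets were not matched for expression level, and the 27025 genes of all promoters include genes not tested here. The antioxidant response element core was present in 13.3% of member promoters (6 of 45) and in 12.4% of all, and CCAAT in 33.3% and 37.4%. The promoters of Psmb3, Psmc5 and Psmd11, which are not shown, held no antioxidant response element core. A match describes these letters only and is no evidence of binding.

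Most members were abundant in every library. The 31 constitutive subunits of the core, the base and the lid had means of 121 to 504 TPM over all 156 libraries, and even the lowest of them ranked 1112 of the 40914 genes. The alpha ring ran from Psma2 at 151 TPM (lowest 135, median 149, highest 172) to Psma7 at 346 TPM (312, 346 and 398). The beta ring ran from Psmb1 at 186 TPM (170, 184 and 214) to Psmb3 at 504 TPM (417, 477 and 745). Psmb3 and Psmb6 had the widest ranges of the constitutive beta subunits. Psmb5, which carries the chymotrypsin-like site, lay at 307 TPM (241, 310 and 343), and Psmb6, which carries the caspase-like site, at 492 TPM (401, 465 and 801).

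Base and lid subunits lay between 121 and 313 TPM. The ATPases, which unfold substrates, ran from Psmc2 at 154 TPM (133, 154 and 167) to Psmc1 at 313 TPM (244, 319 and 353). The other base subunits ran from Psmd1 at 164 TPM to Psmd2 at 248 TPM. In the lid, Psmd3 and Psmd11 had the lowest means, both 121 TPM, and Psmd8 the highest, 217 TPM, while Psmd14, the deubiquitinating enzyme of the lid, lay at 181 TPM (132, 185 and 214).

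Activators, inhibitors and chaperones were present at intermediate levels. The activators Psme3 and Psme4 had means of 111 and 99.4 TPM, above Psme2 (58.2 TPM) and Psme1 (48.4 TPM), which together form the interferon-inducible PA28 cap. Psme2b, a copy related to Psme2, was at 0 TPM in 120 of 156 libraries. Psmf1, the proteasome inhibitor PI31, lay at 23.4 TPM. Among the chaperones of the core, Psmg1 was highest with 107 TPM (89.8, 106 and 133) and Psmg3 lowest with 25.7 TPM (highest 40.2). Among those of the base, Psmd5 was highest with 43.4 TPM and Psmd9 lowest with 19.1 TPM; 1849 bases of the exons of Psmd9 overlap the gene Gm26745, and the kit does not mark strand, so reads of the pair cannot be told apart.

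Tissue-restricted and inducible core subunits spanned a wide range of low levels. Psmb10 lay at 21 TPM (12.8, 19.9 and 40.6), whereas Psmb9 lay at 0.917 TPM (0.251, 0.819 and 2.26) and Psmb8 at 0.081 TPM, with 36 libraries at 0. All 3 are the catalytic subunits of the immunoproteasome. Psmb9 shares 212 exonic bases with its neighbour Tap1, and Psmb8 shares 498 with Gm20496, so their low values are uncertain. In all, 15 members have exons that overlap another annotated gene. Psmb11, the beta subunit of the thymus, had a mean of 0.0763 TPM, while Psma8, the alpha subunit of the testis form, was at 20.6 TPM (15.1, 20.5 and 33.1).

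**Figure D1:**
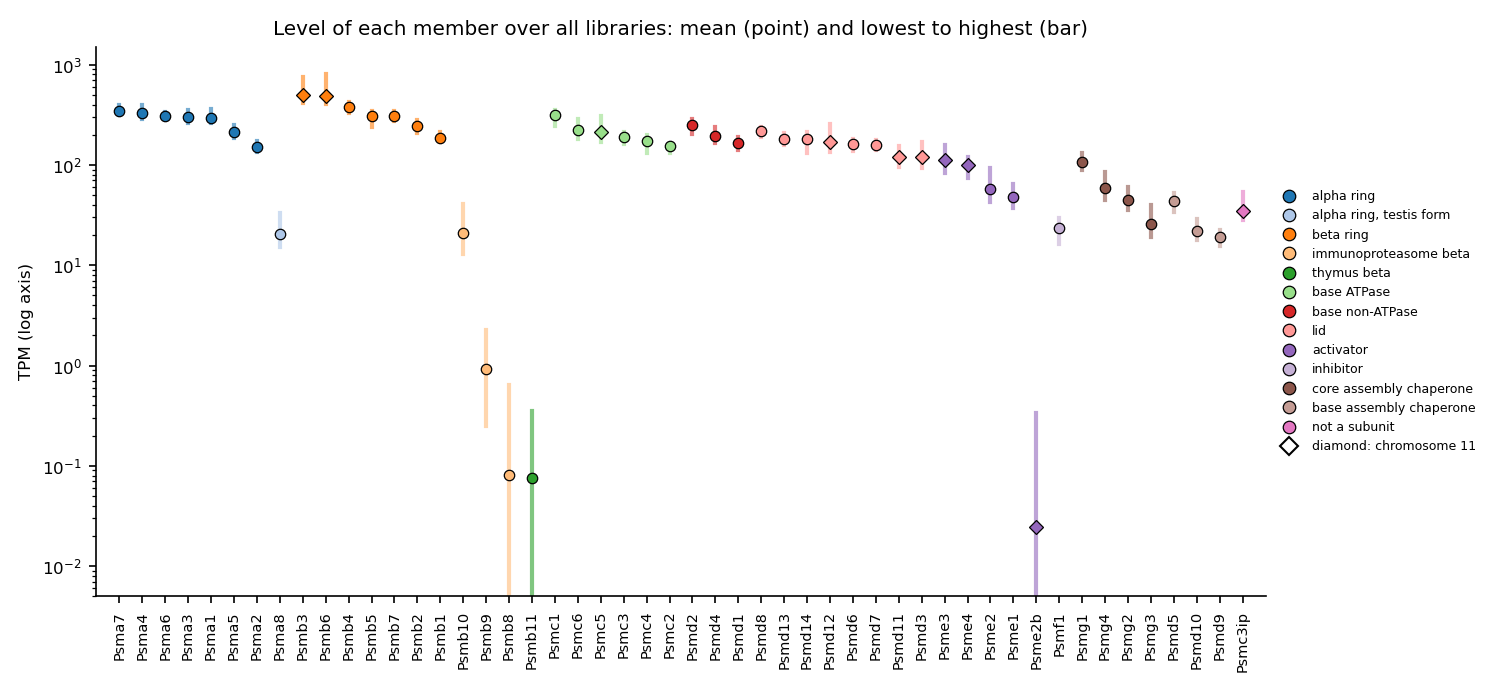
Mean TPM (points) and lowest to highest library (bars) of each of the 50 members over 156 libraries, on a log axis, grouped by role, with diamonds for chromosome 11. Constitutive core, base and lid subunits form a band from 121 to 504 TPM, and Psmb9, Psmb8, Psmb11 and Psme2b lie below 1 TPM.

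Variation between libraries was small for most members. Over the 46 members with a mean of at least 10 TPM the median coefficient of variation was 7.86%, against 11.5% over the 7716 genes above that level. The sets were not matched for level, and 31 of these members had means of 121 to 504 TPM. Psma6 was the steadiest of the 31 constitutive subunits, with a coefficient of variation of 3.08%, and Psmb6 the least steady, with 16.9%. The 6 constitutive subunits on chromosome 11 (Psmb3, Psmb6, Psmc5, Psmd3, Psmd11 and Psmd12) ran from 9.41 to 16.9%, and the other 25 from 3.08 to 9.22%. Grouping by chromosome 11 here and below was chosen after the values had been seen.

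Before doxycycline, at 0 min of the long course, the KO control exceeded the WT control in 19 of the 47 members and fell below it in 3 (edgeR quasi-likelihood test, Benjamini-Hochberg adjusted p under 0.05). Of all genes tested, 35.1% passed, 16.5% higher and 18.6% lower. All 9 members tested on chromosome 11 were higher, by a median log2 fold change of 0.45 (0.44 in TPM), and of the 38 others 10 were higher and 3 lower, with a median of 0.03. By role, 5 core, 11 regulatory and 2 assembly members and Psmc3ip were higher. The median over all 47 members was 0.06, and over all genes tested -0.01.

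The catalytic subunit Psmb6 had 260, 269 and 272 CPM (counts scaled to library size, comparable between libraries for 1 gene) in the 3 WT control libraries and 404, 391 and 393 CPM in the 3 KO control libraries. The groups did not overlap, and the log2 fold change was 0.57 ± 0.04 (SE, adjusted p = 5.89e-23 in edgeR). Psmb3, a structural beta subunit, had 262, 261 and 265 CPM in the WT control and 352, 359 and 366 CPM in the KO control. Every KO library was again above every WT library, with a log2 fold change of 0.45 ± 0.03 (adjusted p = 1.01e-19 in edgeR). Of the rest of the beta ring, Psmb4 was lower by a log2 of -0.08, and Psmb5 did not pass the test with a log2 fold change of 0.06 ± 0.04 (adjusted p = 0.189 in edgeR).

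Regulatory members on the same chromosome showed the same direction. Psme3 had 164, 167 and 169 CPM in the WT control and 239, 241 and 233 CPM in the KO control, or 0.51 ± 0.03 on the log2 scale (adjusted p = 2.78e-26 in edgeR). The ATPase Psmc5 had 220, 228 and 224 CPM against 305, 312 and 303 CPM. Neither gene's groups overlapped. In the lid, Psmd3 had 173, 185 and 176 CPM against 251, 247 and 245 CPM, Psmd12 212, 208 and 213 CPM against 277, 285 and 292 CPM, and Psmd11 175, 176 and 173 CPM against 233, 235 and 234 CPM. The activator Psme4 had 329, 327 and 335 CPM against 400, 406 and 407 CPM, the smallest log2 fold change of the 9, 0.29. Psmc3ip, which is no subunit, was also higher, by 0.35 on the log2 scale.

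The rest of chromosome 11 moved with these members. Of its 1334 genes tested, 921 (69.0%) passed with a higher level in the KO control and 22 with a lower one, and 90.5% had a positive fold change. The median over the chromosome was 0.39, and the medians of the 19 other chromosomes with genes tested lay between -0.06 and 0.02. In windows of 20 Mb along chromosome 11 the median ran from 0.35 to 0.46. Against the median of the chromosome, the 9 members ran from -0.10 to 0.18, with 7 above it. DNA copy number was not analysed here, and the part of the whole chromosome in the members' difference was not tested.

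**Figure D2:**
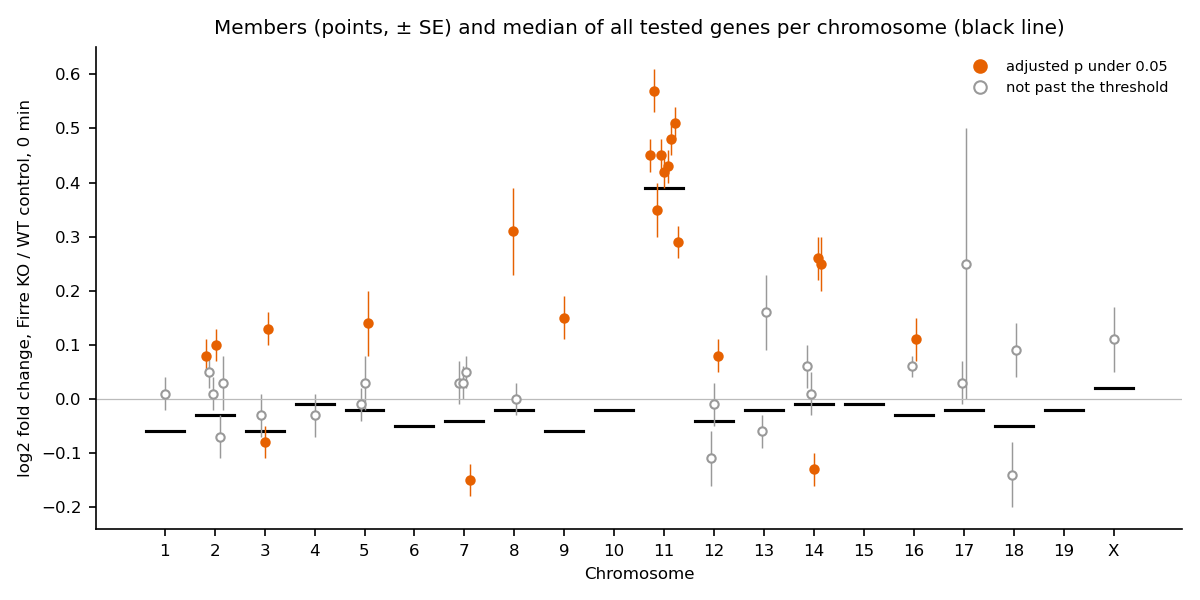
Log2 fold change of the 47 members between KO control and WT control at 0 min of the long course (points, bars ± SE, filled where the adjusted p is under 0.05) by chromosome, with black lines for the median of all genes tested on each. The 9 members on chromosome 11 lie from 0.29 to 0.57 around a chromosome median of 0.39.

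Members elsewhere differed less. Psmb10, the immunoproteasome subunit with the trypsin-like site, had 9.35, 9.88 and 8.98 CPM in the WT control and 12.0, 11.4 and 11.4 CPM in the KO control, without overlap. Its log2 fold change was 0.31 ± 0.08 (adjusted p = 0.00202 in edgeR). Psme1 had 46.2, 42.0 and 44.8 CPM against 52.8, 53.5 and 52.5 CPM, a log2 fold change of 0.26 ± 0.04 (adjusted p = 1.47e-07 in edgeR), and its partner Psme2 was higher by 0.25 ± 0.05. The 7 other increases off chromosome 11 (Psma4, Psma7, Psmc1, Psmd4, Psmd14, Psmg1 and Psmg3) were between 0.08 and 0.15, among them Psmd14 with 0.10 ± 0.03 and Psmg1 with 0.11 ± 0.04. The largest decrease was that of the lid subunit Psmd8, which had 209, 209 and 217 CPM against 191 CPM in each KO library, a log2 of -0.15 ± 0.03, followed by Psmd6 with -0.13. Psmc2 did not pass, with a log2 fold change of -0.01 ± 0.03.

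Averaged over the 5 times, 21 members were higher and 12 lower in the KO control, where 52.2% of all genes passed the same edgeR test. All 9 tested on chromosome 11 were higher, with a median of 0.33, and the 38 others split into 12 higher and 12 lower. At each time the members of chromosome 11 lay near the median of all genes on the chromosome: 0.42 beside 0.39 at 720 min, 0.23 beside 0.23 at 1440 min, 0.24 beside 0.24 at 2880 min and 0.28 beside 0.27 at 5760 min. In 8 members all 15 KO control libraries lay above all 15 WT control libraries, as they did in 1.95% of all genes tested. These were Psmb3, Psmb6, Psmc5, Psmd3, Psmd11, Psmd12 and Psme3 on chromosome 11, and Psme1 on chromosome 14. Psme1 ran from 41.0 to 46.2 CPM in the WT control and from 47.5 to 53.7 CPM in the KO control, and Psmb6 from 220 to 272 CPM and from 301 to 404 CPM. Psma8 was the member with the largest decrease, with 19.7 to 24.8 CPM in the WT control and 17.5 to 20.4 CPM in the KO control, overlapping ranges, and a mean log2 fold change of -0.23 ± 0.03 (adjusted p = 6.25e-11 in edgeR). Psmb9 had the largest increase off chromosome 11, a mean log2 fold change of 0.37 ± 0.12 (adjusted p = 0.00936 in edgeR), at about 1 CPM or less in most libraries.

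In the long course summed levels differed more in the beta ring than in the alpha ring, without a test. The 7 constitutive beta subunits summed to between 2257 and 2588 TPM per library in the WT control and to between 2561 and 3051 TPM in the KO control, while the 7 of the alpha ring summed to 1874 to 2126 TPM and 1876 to 2164 TPM. Psmb3 and Psmb6 are among these 7 beta subunits, whose median log2 fold change over the 5 times was 0.02. In the short course the beta ring summed to 2244 to 2380 TPM in the WT control and to 2202 to 2449 TPM in the KO control. These ranges overlapped, with medians of 2334 and 2294 TPM. In bulk RNA, a difference in the number of expressing cells and one in RNA per cell cannot be told apart.

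In the short course the difference between the control lines was small. At 0 min 2 members passed, both higher in the KO control, where 7.51% of all genes passed: the base subunit Psmd1 with a log2 fold change of 0.21 ± 0.05 (adjusted p = 0.00549 in edgeR) and Psmd12 with 0.21 ± 0.05 (adjusted p = 0.00855 in edgeR). Averaged over the 12 times, 10 members were higher and 7 lower, against 45.7% of all genes passing. With a spline of time in place of 1 coefficient per line and time, a fit chosen after seeing the data, the counts were 12 and 7 with all libraries, 28 and 5 without replicate 1, and 7 and 19 without replicate 2. Of the 9 members on chromosome 11, 6 were higher and 1, Psmd3, was lower (-0.10). The median over all 1337 tested genes of the chromosome was 0.08, with 48% higher. In no member did all 24 KO control libraries lie above or below all 24 WT control libraries, which 1.15% of all genes did.

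Averaged over times, 9 members were higher and 4 lower in the KO control in both courses, and 2 went opposite ways. Psme1 and Psma8 were among those that differed alike in both. In the short course Psme1 ran from 33.1 to 38.1 CPM in the WT control and from 37.4 to 44.0 CPM in the KO control, with a log2 difference of 0.22 ± 0.02 (adjusted p = 8.11e-16 in edgeR), equal to its 0.22 in the long course. Psma8 ran from 14.4 to 22.2 CPM and from 13.6 to 17.9 CPM, a log2 fold change of -0.26 ± 0.03 (adjusted p = 9.25e-12 in edgeR), beside -0.23 in the long course. Both ranges overlapped. For Psmb6 the short course gave 209 to 234 CPM against 222 to 266 CPM and a log2 fold change of 0.16, beside 0.43 in the long course, and Psmb9 gave 0.32 ± 0.11.

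**Figure D3:**
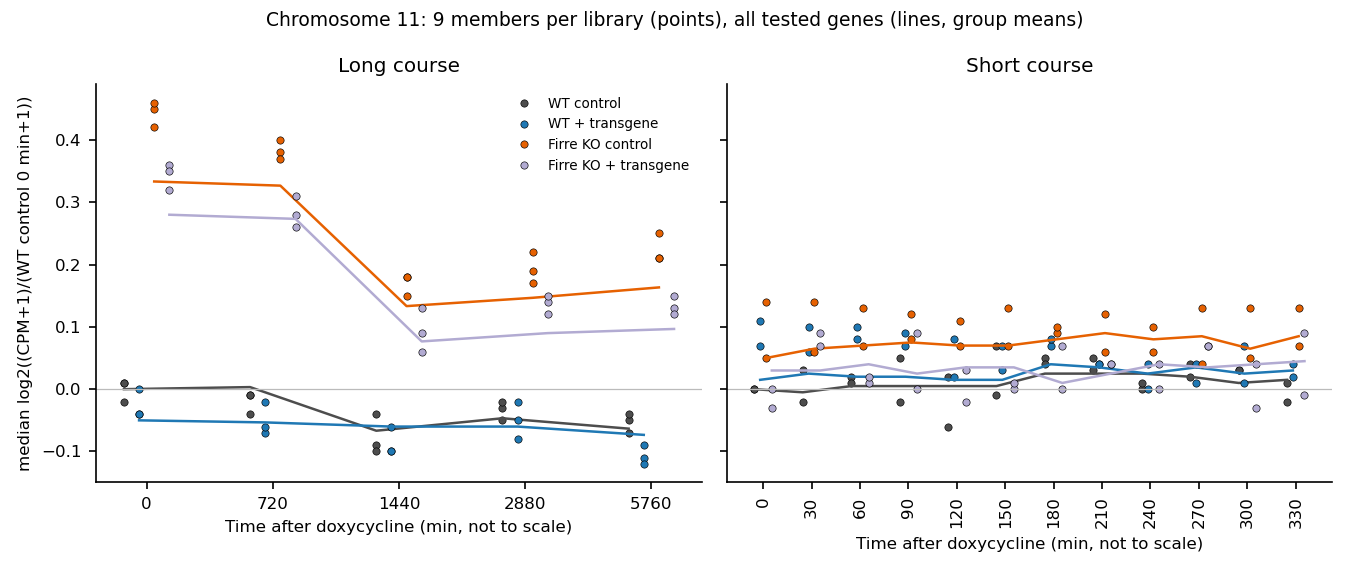
Median over the 9 chromosome 11 members per library (points) and over all tested genes of the chromosome (lines, group means), as log2 of CPM + 1 relative to the WT control at 0 min of the same course, by line and time in both courses. In the long course the points of the KO control fall from 0.42 to 0.46 at 0 min to 0.15 to 0.18 at 1440 min, together with the line for the whole chromosome.

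The difference on chromosome 11 was smaller from 1440 min on. In the KO control the median of the 9 members per library, relative to the WT control at 0 min, was 0.42 to 0.46 at 0 min, 0.37 to 0.40 at 720 min, 0.15 to 0.18 at 1440 min, 0.17 to 0.22 at 2880 min and 0.21 to 0.25 at 5760 min. In the KO transgene line it was 0.32 to 0.36 at 0 min and 0.06 to 0.13 at 1440 min. Libraries of 0 and 720 min did not overlap with those of 1440 min in either line. In the WT control the members stayed between -0.10 and 0.01 at all times.

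Between 720 and 1440 min, 15 members fell and 4 rose in the KO control, where 38.5% of all genes passed the edgeR test, 19% lower. All 9 members tested on chromosome 11 fell, by a median of -0.23, as did 753 of the 1334 genes of the chromosome (56.4%), whose median was also -0.23; in TPM the median of the 9 was -0.31. In the KO transgene line 11 fell and 7 rose (39.4% of all genes passed), 8 of the 9 on chromosome 11 among the falls. In the WT control 7 fell and 4 rose (30.5%), 2 and 1 of them on chromosome 11, and these 11 calls became 9 without the library rich in structural RNAs and 6, 7 and 5 without replicate 1, 2 or 3. In the WT transgene line 15 fell and 6 rose (41.8%). Psmb6 went from 371, 345 and 362 CPM to 309, 304 and 315 CPM in the KO control, and from 250, 240 and 250 CPM to 220, 243 and 249 CPM in the WT control. Psme3 went from 244, 243 and 247 CPM to 205, 198 and 197 CPM in the KO control and from 175, 176 and 168 CPM to 178, 166 and 176 CPM in the WT control. For both genes the KO groups were apart and the WT groups overlapped.

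The difference of this step between the KO and the WT control was tested itself, and 7 members fell more and 3 rose more in the KO control, where 13.3% of all genes passed. The 7 were all on chromosome 11: Psmd3 (-0.31), Psme3 (-0.29), Psmd11 (-0.29), Psme4 (-0.27), Psmc5 (-0.19), Psmb6 (-0.16) and Psmd12 (-0.14). Psmd8 rose more in the KO control, by a log2 of 0.25 (adjusted p = 1.94e-06 in edgeR): its values went from 182, 174 and 181 CPM to 217, 214 and 213 CPM there, and from 205, 211 and 203 CPM to 206, 207 and 212 CPM in the WT control. The base chaperone Psmd5 (0.15) and the lid subunit Psmd6 (0.13) did likewise. The 10 calls became 6 without replicate 2, without replicate 3, and without the library rich in structural RNAs alone. Over the whole course 14 members fell and 2 rose relative to the WT control (18.8% of all genes passed), among the falls all 9 tested on chromosome 11. These 16 calls became 9 without replicate 2.

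Most members changed over the long course in every line, and for some classes the direction depended on the scale. In the WT control, 17 members rose and 25 fell from 0 min at the time of their largest change, where 54.8% of all genes passed the edgeR test, 28.7% higher and 26.1% lower. In the KO control 4 rose and 29 fell, where 59.6% of all genes passed, 29.8% each way. In the WT transgene line 17 rose and 27 fell (61.9%), and in the KO transgene line 10 rose and 25 fell (60.8%). In the WT control 6 of 7 alpha subunits rose in CPM and 1 fell, but between 0 and 2880 min their median was 0.11 in CPM and -0.09 in TPM, with 7 and 1 of 7 above 0. All 6 base ATPases fell there, with a median at 2880 min of -0.07 in CPM and -0.26 in TPM, and 6 of 7 beta subunits fell, with 0.05 in CPM and -0.09 in TPM at 2880 min. In the KO control 2 alpha subunits rose and 3 fell, and 6 beta subunits and 4 ATPases fell, with TPM medians at 2880 min of -0.12, -0.20 and -0.25 for these classes. Of the 25 and 29 members that fell, 19 were shared, 76.0% and 65.5% of the lists, and 6 members went opposite ways.

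The ATPase Psmc4 fell in both control lines. In the WT control it had 221, 217 and 226 CPM at 0 min and 173, 171 and 176 CPM at 2880 min, a log2 fold change of -0.36, and in the KO control its largest change was -0.29. The alpha subunit Psma6 rose from 177, 165 and 168 CPM to 213, 213 and 216 CPM in the WT control (0.33), and by 0.25 in the KO control. At neither gene did the WT groups overlap; in TPM, Psmc4 likewise went from 188, 185 and 189 to 143, 135 and 139, while Psma6 went from 314, 297 and 301 to 322, 316 and 318. The immunoproteasome subunit Psmb10 fell by 0.41 at 1440 min in the WT control, from 9.35, 9.88 and 8.98 CPM to 6.80, 7.41 and 6.99 CPM, and by 0.59 at 2880 min in the KO control. Psmb9 fell by 0.89 at 1440 min in the WT control, at 0.348 to 0.535 CPM. The core chaperone Psmg4 rose by 0.41 at 5760 min in the WT control, where its 14.6 to 18.5 CPM stood above the 12.2 to 12.9 CPM of 0 min.

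In CPM, more members fell than rose over the first step, from 0 to 720 min. For the WT control 6 members fell and 1 rose (4.83% of all genes passed, 2.23% lower), and in the KO control 16 fell and 2 rose (8.84%, 4.38% lower). Beta subunits made up 4 of the 6 and 6 of the 16, with ring medians of -0.11 and -0.14 in CPM but 0.01 and 0 in TPM. In the transgene lines 6 fell and 3 rose in the WT background (9.22%), and 15 fell and 0 rose in the KO background (11.5%). Psmb2, a beta subunit without a catalytic site, fell by 0.20 in both control lines, Psmb5 by 0.16 and 0.19, and Psmc4 by 0.22 and 0.23. Psma6 rose by 0.15 and 0.18. No member passed a test of the difference between KO and WT control over this step in edgeR, where 1 had an unadjusted p under 0.05 and 0.00569% of all genes passed.

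From 1440 to 2880 min core subunits rose in the WT background on the CPM scale. For the WT control 21 members rose and 3 fell (15.3% of all genes passed, 8.4% higher), among the rises 7 of 7 alpha and 6 of 7 beta subunits of the constitutive rings, with a median over members of 0.10 in CPM but -0.03 in TPM, where the median of all genes moved by 0 and -0.07. The base and lid contributed fewer, with 2 ATPases and 3 lid subunits higher. Psma7 went from 198, 214 and 218 CPM to 229, 237 and 240 CPM, and Psma3 and Psmb1 rose by 0.23 and 0.22. Per ring the medians were 0.17 in CPM and 0.06 in TPM for the alpha ring, 7 of 7 above 0 on both scales, and 0.13 and 0 for the beta ring, 7 and 3 of 7 above 0. Psme2 rose by 0.25, the largest rise of a member past the test. In the WT transgene line 19 rose and 4 fell (20.3%, 10.9% higher), among them again 7 of 7 alpha subunits, with a median over members of 0.08 in CPM but -0.03 in TPM. Without replicate 1, 2 or 3 the 24 calls in the WT control became 15, 14 and 11, without the library rich in structural RNAs they became 19, and the 23 in the WT transgene line became 13 or 14.

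In the KO control no member passed over the same step by edgeR or DESeq2, with 4 at an unadjusted p under 0.05 and 2.32% of all genes passing, and Psma7 went from 209, 212 and 216 CPM to 216, 221 and 216 CPM. In the KO transgene line Psmb3 rose by 0.11 and Psmc4 fell by 0.12 (6.82%). The difference of the step between KO and WT control had a median of -0.08 over members, with 23 at an unadjusted p under 0.05, but only Psmd6 passed after adjustment (-0.15, adjusted p = 0.0462 in edgeR, 1.38% of all genes), and DESeq2 called 4. Psmd6 did not pass without replicate 1, 2 or 3. No core subunit passed this test of the difference in edgeR.

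**Figure D4:**
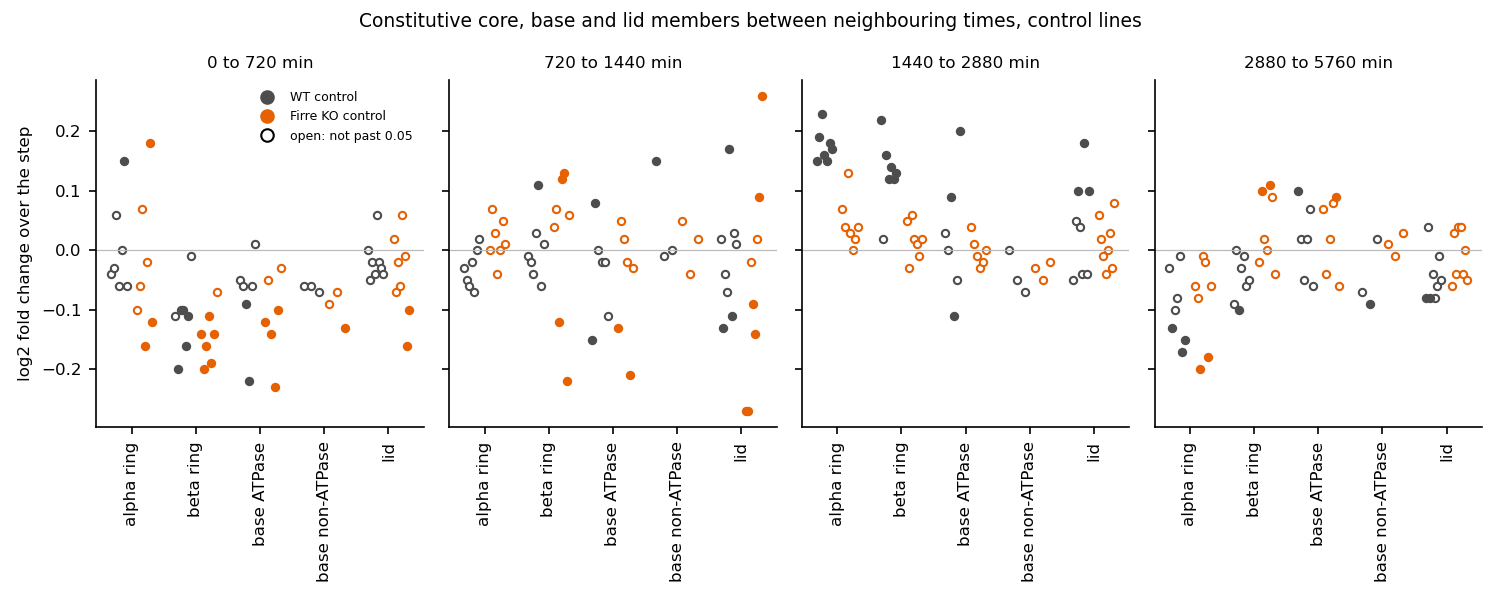
Log2 fold change of the 31 constitutive core, base and lid members over each step between neighbouring times in the WT control (grey) and the KO control (orange), filled where the adjusted p is under 0.05. From 1440 to 2880 min 7 alpha and 6 beta subunits are filled in the WT control and none in the KO control.

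From 2880 to 5760 min 8 members fell and 1 rose in the WT control (17.8% of all genes passed), 13 fell and 4 rose in the WT transgene line (27.4%), 3 fell and 4 rose in the KO control (19.1%), and 4 fell and 5 rose in the KO transgene line (17.8%). No member passed the difference between KO and WT control in edgeR, with 6 at an unadjusted p under 0.05 and 0.0114% of all genes passing. Over the short course few members changed. In the WT control Psmg3, Psmd5 and Psma8 passed (21.8% of all genes), with mean log2 fold changes over the times after 0 min of 0.18, 0.04 and -0.01. Psmd5 stood at 0 without replicate 1 and Psma8 at 0.14 without replicate 2, Psmg3 did not pass without replicate 1 or without replicate 2, and with 1 coefficient per line and time none of the 3 passed. In the KO control Psmd10 had -0.12 (adjusted p = 0.0291 in edgeR, 13.3%), and it did not pass without replicate 1, without replicate 2, without the filter on low counts or with 1 coefficient per line and time. Comparing 180 to 330 min with 0 to 150 min, 23 members fell and 1 rose in the WT transgene line (33.5%, 16.5% lower), 1 fell and 5 rose in the WT control (30.5%), none passed in the KO control (edgeR, 5 at an unadjusted p under 0.05, 15.9%), and 1 rose in the KO transgene line (14.2%). Replicates of the WT transgene line differed in the median of members off chromosome 11, relative to the WT control at 0 min. In replicate 2 this median was 0.09 to 0.15 at 0 to 150 min and -0.01 to 0.03 after. In replicate 1 it was -0.01 to 0.04 and then -0.06 to 0.03. This comparison was not repeated without 1 replicate.

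Before induction, few members differed between the lines with the transgene and their controls. Firre itself was already higher at 0 min of the long course. It had means of 46.1 TPM in the WT transgene line and 24.2 TPM in the WT control. In counts, which the test uses, the log2 fold change was smaller, 0.31 ± 0.04 (adjusted p = 6.68e-08 in edgeR). The KO transgene line had 0.895 TPM and the KO control 0.39 TPM, with 1.35 ± 0.28 in counts (adjusted p = 0.000681 in edgeR). At 0 min of the short course Firre passed in neither background. Its log2 fold change in counts was 0.02 in the WT (adjusted p = 0.962 in edgeR) and 0.24 in the KO background (adjusted p = 0.817 in edgeR). The WT means in TPM were 43.4 with the transgene and 26.5 in the control. In the KO background Psmb3 (-0.12, adjusted p = 0.0177 in edgeR) and Psmc5 (-0.11, adjusted p = 0.00496 in edgeR) were lower at 0 min of the long course, where 3.54% of all genes passed. Without replicate 2 neither passed, and without replicate 1 only 1 did. In the WT background 3 members were higher and 3 lower (13.2%). Psmg4 had 12.2, 12.9 and 12.3 CPM in the WT control and 17.4, 17.1 and 17.1 CPM in the WT transgene line, without overlap and with a log2 fold change of 0.46 ± 0.07 (adjusted p = 1.75e-06 in edgeR). Psma8 was higher by 0.29 and Psme4 by 0.10, and Psmf1, Psmb3 and Psmb6 were lower by a log2 of -0.16, -0.15 and -0.13. Without replicate 2 the 6 calls became 3. In the short course no member passed at 0 min in either background by edgeR, with 10 at an unadjusted p under 0.05 in the KO and 6 in the WT background (0.161% and 2.93% of all genes passed), and Psmg4 stood at 0.38 (adjusted p = 0.0629 in edgeR).

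The response to induced Firre was measured as the change since 0 min in a transgene line minus the change in its control line. Each response thus shares its control libraries with that control line's time course above. In the KO background 3 members passed over the long course, where 11.5% of all genes did: Psmd3 with a largest log2 difference of 0.13 at 1440 min (adjusted p = 0.00948 in edgeR), Psmd14 with 0.13 at 5760 min (adjusted p = 0.0446 in edgeR) and Psme1 with -0.16 at 1440 min (adjusted p = 0.0234 in edgeR). None passed without replicate 2 or without replicate 3, and DESeq2 called 6. Psme1 had 49.9, 48.2 and 49.1 CPM at 0 min and 41.1, 43.1 and 44.8 CPM at 1440 min in the KO transgene line, against 52.8, 53.5 and 52.5 CPM and 48.8, 52.9 and 53.7 CPM in the KO control. The groups of the transgene line were apart and those of the control line overlapped.

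In the WT background 3 members passed as well (9.79% of all genes): Psmd3 with 0.17 at 5760 min (adjusted p = 0.00143 in edgeR), Psme3 with 0.08 at 1440 min (adjusted p = 0.0467 in edgeR) and Psmc2 with -0.10 at 5760 min (adjusted p = 0.0218 in edgeR). Without replicate 1 the count was 5, without replicate 2 it was 0 and without replicate 3 it was 1, and Psme3 stood at -0.11 without replicate 3 (adjusted p = 0.177 in edgeR). Psmd3 had 169, 172 and 178 CPM at 0 min and 209, 210 and 211 CPM at 5760 min in the WT transgene line, against 173, 185 and 176 CPM and 200, 184 and 190 CPM in the WT control. The ranges of the times overlapped in the WT control and not in the transgene line.

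Taken at single times, the responses of the members centred near 0. In the KO background the medians over 47 members at the 4 times were between 0.00 and 0.04, and only Psma4 at 1440 min passed (0.17, adjusted p = 0.0318 in edgeR). Of all genes, 0.854, 6.46, 4.83 and 5.35% passed at 720, 1440, 2880 and 5760 min. In the WT background the medians were between -0.02 and 0.02, and only Psmd3 (0.17) and Psmf1 (0.22) at 5760 min passed, beside 0.581, 1.85, 2.56 and 8.23% of all genes. The difference between the responses in the KO and the WT background passed for 3 members (5.32% of all genes): Psma4 with 0.25 ± 0.08 at 2880 min, Psmc2 with 0.14 ± 0.06 at 5760 min and Psme1 with -0.29 ± 0.08 at 2880 min. Without replicate 2 or without replicate 3 none of these was left.

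**Figure D5:**
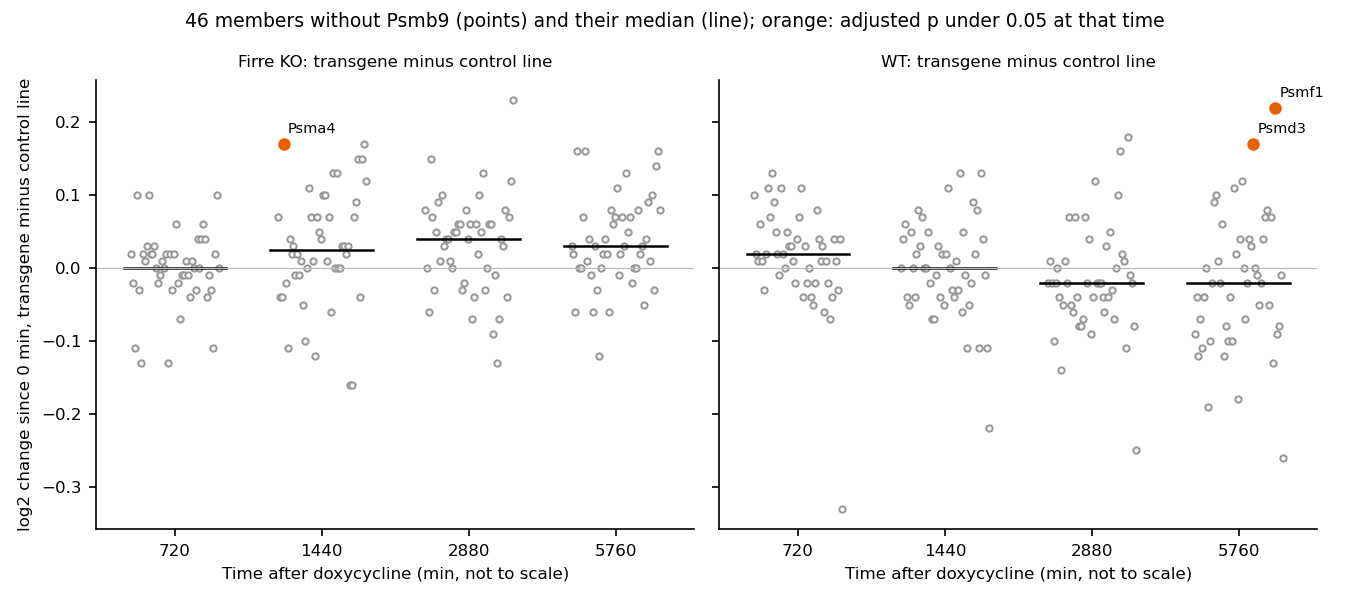
Log2 change since 0 min, transgene line minus control line, at 4 times, in the KO background (left) and the WT background (right), for 46 members (points; Psmb9, at under 2 CPM, is left out) with their median as a line and members past the test in orange. The medians lie between -0.02 and 0.04 and 3 points are orange.

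In the short course no member passed a test of the response. In the KO background 1.82% of all genes passed edgeR and 4 members had an unadjusted p under 0.05, with the lowest, 0.00442, at Psmc6. This spline test did not call the induced Firre either, at 3.21 ± 1.07 on the log2 scale (adjusted p = 0.238 in edgeR). Yet Firre's mean went from 1.66 TPM at 0 min to 465 TPM at 120 min in the KO transgene line. This test can thus miss such a response. With 1 coefficient per line and time, Firre's mean response was 7.57 (adjusted p = 2.82e-20 in edgeR), and no member passed. The spline called Firre in the WT background (adjusted p = 1.7e-07 in edgeR). In the WT background 0.7% of all genes passed and 13 members had an unadjusted p under 0.05, and without replicate 1 there were 13 past the adjusted threshold, 3 higher and 10 lower, while the number over all genes went from 126 to 799. For the difference between the responses 0.0167% of all genes passed, with 18 members at an unadjusted p under 0.05, 5 past the adjusted threshold without replicate 1, and 4 by DESeq2. On counts simulated for the KO background, 50 genes per size were changed, all with a mean count of at least 1000. Each change kept the same size at all times it covered. Changes of 0.1, 0.2, 0.4 and 1 on the log2 scale were called in 2, 52, 94 and 100% of genes in the long course. In the short course they were called in 2, 36, 98 and 100%. These rates do not cover members with lower counts, such as Psmb9, Psmb10 and Psmg4 with medians of 19.9, 197 and 388. They also do not cover changes at single times or changes that rise and fall, as that of Firre did.

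Other genes of the pathway were taken from 6 lists of 42 genes, of which 41 were in the table and tested. Between the control lines at 0 min of the long course, 6 of the 6 list genes on chromosome 11 were higher (median 0.32). Of the 35 elsewhere 5 were higher and 6 lower (median 0.00), beside 16.5% and 18.6% of all genes. The chromosome of a named list gene is given below only for Nfe2l1, so other named increases may be among the 6 on chromosome 11. Among 7 subunits and chaperones with other symbols, 1 was higher, Ecpas (0.16), and none lower. Among the ubiquitin genes, of which not all are reported here, Rps27a, which encodes ubiquitin fused to a ribosomal protein, was higher by 0.32 (adjusted p = 8.32e-08 in edgeR). Neither of 2 genes of ubiquitin activation passed. Of 7 genes that process NRF1 or regulate proteasome genes 3 were higher and 1 lower: Nfe2l1 itself, on chromosome 11, had a log2 fold change of 0.43 (adjusted p = 2.14e-23 in edgeR), and Nfe2l2, which encodes the related factor NRF2, one of -0.34 (adjusted p = 9.66e-15 in edgeR). Of 10 shuttle and p97 genes 1 was higher, Nploc4 (0.47), and 2 lower, among them the shuttle Ubqln2 (-0.26). Of 11 genes of antigen processing and interferon response 4 were higher and 2 lower, led by H2-K1 (0.70 ± 0.06, adjusted p = 3.04e-16 in edgeR), a class I molecule that presents peptides made by the proteasome, and Erap1 (0.86 ± 0.12), which trims them.

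Over time and after induction the lists were mixed. In the time course of the WT control 23 of the 41 list genes rose and 12 fell, beside 54.8% of all genes that passed. In the response of the KO background 3 of the 41 were higher and 2 lower by the edgeR test, beside 11.5% of all genes: 1 other-symbol subunit, 1 shuttle gene and 1 antigen gene were higher and 2 antigen genes lower. In that of the WT background 6 were higher and 4 lower, beside 9.79% of all genes.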

How the data were processed

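Expected counts and TPM per gene, so named per the file headers, were deposited by the authors for 156 libraries. Per the submitters' processing notes the reads were quantified with Salmon 1.5.2 on mm10, and 76% of the deposited expected counts were exactly whole. Per the labels' protocols, poly(A) libraries came from an unstranded TruSeq v2 kit. Library totals ran from 18961799 to 47948630 counts.

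Expected counts were rounded and fitted with edgeR 4.0.16 in R 4.3.3, each course apart: filterByExpr (minimum count 10, minimum total 15), TMM scaling, robust quasi-likelihood fits, and Benjamini-Hochberg adjustment over all 17565 (long) or 18009 (short) genes tested, with a threshold of 0.05. Each line and time of the long course had its own coefficient. For tests over time the short course had a spline with 3 df, and otherwise also a coefficient for each line and time. A test over time carries the fold change of the time with the largest change (long) or the mean over later times (short). Levels are deposited TPM, and CPM uses TMM scaling. Alternatives were DESeq2 and its size factors, no filter, a replicate block, only the lines compared, and fits without 1 replicate or library. The analysis was tested on simulated counts.

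Named were, per comparison, the 3 members past the threshold with the largest change each way at 1 CPM or more, the extremes of each class, a fixed set (Psmb5, Psmb8, Psmb9, Psmb10, Psmd14, Psmc2, Psme1 to Psme4, Psmg1), and at most 2 genes per pathway list, of which 1 is not reported here. Other names were added after their values were seen. The members, lists and rule were chosen with earlier results of these data known. No same-numbered replicates deviated together in every pair, with correlations between -0.106 and 0.0773 in the long course, so samples were not treated as paired. That check compared lines at the same time, and not the times of 1 line. In the short KO control the median of members off chromosome 11 was higher in replicate 2 at each time. It was -0.07 to 0.01 in replicate 1 and 0.02 to 0.08 in replicate 2. Tests that join times take such libraries as independent. The 108 replicate pairs differed beyond sampling noise, with a lowest chi-square per degree of freedom of 1.75. Gene positions came from GENCODE M21, in which 40846 of 40914 identifiers matched.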

Additional observations from a re-analysis of the deposited data

Results flagged for a closer look

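Several members changed differently in the KO and the WT background by a test of the difference itself (edgeR quasi-likelihood test, adjusted p under 0.05). The response to the transgene in the KO background minus that in the WT background was -0.29 for the activator subunit Psme1, 0.14 for the ATPase Psmc2 and 0.25 for the alpha subunit Psma4, at the time of the largest difference. Of all genes 5.32% passed this test, and with 1 replicate left out 0 to 3 members did.

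The time course of the KO control differed from that of the WT control in 16 members, beside 18.8% of all genes, and in 9 to 13 with 1 replicate left out. The largest differences in log2 were 0.19 for Psmd8, 0.15 for Psmd6, -0.31 for Psmb6, -0.30 for Psmd3 and -0.30 for Psme3.

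Over the step from 720 to 1440 min 10 members differed between the control lines, beside 13.3% of all genes, and 6 to 9 with 1 replicate left out. The largest differences were 0.25 for Psmd8, 0.15 for Psmd5, 0.13 for Psmd6, -0.31 for Psmd3, -0.29 for Psme3 and -0.29 for Psmd11. Over the step from 1440 to 2880 min 1 member differed, Psmd6 with -0.15, beside 1.38% of all genes, and 0 with 1 replicate left out.

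The members that fell more in the KO control from 720 to 1440 min are on chromosome 11, whose tested genes had a median of -0.23 over that step in the KO control and of -0.08 in the WT control. The part of the whole chromosome in the members' differences was not tested.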

How the results depend on the processing

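Counts of members past the threshold depended most on which replicates entered. With 1 replicate left out at a time they ran from 19 to 21 for KO against WT control at 0 min (22 with all libraries) and from 27 to 31 for the mean of times (33). They ran from 0 to 2 for the transgene line against its control at 0 min in the KO background (2) and from 3 to 4 in the WT background (6). For the long responses they ran from 0 to 2 in the KO background (3), from 0 to 5 in the WT background (3) and from 0 to 3 for their difference (3). For the long time courses they ran from 29 to 34 in the WT control (42), from 27 to 33 in the KO control (33) and from 9 to 13 for the difference (16). For the step from 720 to 1440 min they ran from 5 to 7 in the WT control (11), from 15 to 16 in the KO control (19) and from 6 to 9 for the difference (10). For the step from 1440 to 2880 min they ran from 11 to 15 in the WT control (24), from 13 to 14 in the WT transgene line (23), and were 0 in the KO control (0) and 0 for the difference (1). In the short course they ran from 3 to 4 for KO against WT at 0 min (2) and from 26 to 33 for the mean of times (17), both with a spline of time, which gave 5 and 19 with all libraries. The short responses gave 0 in the KO background (0), 0 to 13 in the WT background (0) and 0 to 5 for the difference (0), and the short time courses 2 to 4 in the WT control (3) and 0 in the KO control (1).

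DESeq2 gave 5 in place of 2 for the transgene line at 0 min in the KO background, 6 and 5 in place of 3 for the long responses in the KO and the WT background, 4 in place of 0 for the difference of the short responses, 2 in place of 1 for the short time course of the KO control, and 4 in place of 1 for the difference of the step from 1440 to 2880 min, which DESeq2's size factors within edgeR set to 0. A fit to only the lines compared gave 1 for the long response in the WT background. Without the filter there were 1 for the short response in the KO background, 2 for the difference of the short responses and 0 for the short time course of the KO control. With 1 coefficient per time both short time courses gave 0. Without the library rich in structural RNAs the difference of the step from 720 to 1440 min gave 6.

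The samples were not paired by the check of replicate numbers, which compared lines at the same time only. A replicate block gave 6 in place of 3 for the long response in the WT background, 5 in place of 3 for the short time course of the WT control, and moved no other count by over 1.5 times.

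Single genes were followed over the alternatives in 89 pairs of gene and comparison. These were at most 3 members each way past the threshold, with the largest changes at 1 CPM or more. Other named values, such as those of list genes, Firre and the responses at single times, were not followed. Of the values followed, 636 kept direction and side of the threshold, 115 kept the direction and lost the threshold, and 3 changed direction. Psme3 in the long response of the WT background was -0.11 without replicate 3, and in the short time course of the WT control Psmd5 was 0 without replicate 1 and 0.08 without replicate 2, and Psma8 was -0.14 without replicate 1 and 0.14 without replicate 2. The causes were not tested. Depth limits Psmb8, Psmb9, Psmb11 and Psme2b.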
